A study of Mus musculus with 6 samples.

Results

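The genes of cell division were examined in the livers of male mice aged 8 weeks, on 1 Affymetrix array per mouse. The group titled HFD-inulin (3 arrays) holds offspring of mothers given inulin, a fermentable plant fibre, and the group titled HFD (3 arrays) holds offspring of mothers on a high-fat diet. The labels give neither the strain nor the offspring's own diet, do not say whether the inulin mothers also had the high-fat diet that their title names, and do not say whether mice of a group shared a mother, and p-values therefore speak of the spread among these livers alone, which may be partly technical. The list holds 31 proliferation and cell cycle genes, chosen by name. For each, the probe set with that platform gene symbol and the highest mean over the 6 arrays was kept. This gave 28 measured genes, with 1 probe set each, out of 30142 genes named on the array. The only probe set of Ccnd1 and that of Foxm1 carry a second gene symbol and were not used, and Ccnb1 was not analysed here.

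A cell that divides passes from G1, where D and E cyclins and E2F factors commit it to replicate, through S phase, where MCM helicases, PCNA and enzymes of nucleotide supply copy the DNA, to G2 and M, where cyclins A and B with CDK1, the Aurora and Polo kinases, kinetochore proteins and spindle motors part the chromosomes. CDK inhibitors such as p21, the product of Cdkn1a, halt the cycle. In the adult liver nearly all hepatocytes rest outside the cycle and can re-enter it after injury or loss of tissue, many of them with more than a diploid genome. Promoter elements known from such genes are the E2F site of genes of G1 and S phase and the cell cycle genes homology region (CHR), which acts with CCAAT boxes in genes of G2 and M phase.

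The stretches of promoter below show these elements in the members described first: Mki67, Kif11 and Mcm2, the members whose group values did not overlap, with Cdk1 and Mcm6, which carry E2F letters. Each is the 250 bases before the RefSeq start of the gene in GRCm38.p6, 5′ to 3′ on the gene's strand. Capitals mark the motifs, which were searched on both strands as TTTCGCGC, TTTGGCGC or TTTCCCGC for E2F, as TTTGAA for CHR, and as CCAAT, so that a CCAAT box on the other strand reads ATTGG. They lie at chr7:135716380-135716629 (minus strand) for Mki67, chr19:37376132-37376381 (plus) for Kif11, chr10:69352913-69353162 (minus) for Cdk1, chr6:88898781-88899030 (minus) for Mcm2 and chr1:128359706-128359955 (minus) for Mcm6.
Mki67: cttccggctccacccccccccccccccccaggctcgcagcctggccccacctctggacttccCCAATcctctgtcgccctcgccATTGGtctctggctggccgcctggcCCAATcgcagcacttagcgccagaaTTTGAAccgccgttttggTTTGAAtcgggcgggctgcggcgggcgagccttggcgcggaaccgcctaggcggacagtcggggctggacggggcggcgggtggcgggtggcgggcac
Kif11: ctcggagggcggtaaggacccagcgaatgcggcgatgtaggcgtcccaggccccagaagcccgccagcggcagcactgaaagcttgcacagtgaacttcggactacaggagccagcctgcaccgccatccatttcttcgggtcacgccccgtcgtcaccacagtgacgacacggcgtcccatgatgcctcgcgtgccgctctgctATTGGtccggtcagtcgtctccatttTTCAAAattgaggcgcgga
Cdk1: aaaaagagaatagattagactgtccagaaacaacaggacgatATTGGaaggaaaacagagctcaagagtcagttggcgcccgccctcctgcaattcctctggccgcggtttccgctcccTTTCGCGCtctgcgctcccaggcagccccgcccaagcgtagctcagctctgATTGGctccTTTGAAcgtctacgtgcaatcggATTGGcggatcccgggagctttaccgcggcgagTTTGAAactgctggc
Mcm2: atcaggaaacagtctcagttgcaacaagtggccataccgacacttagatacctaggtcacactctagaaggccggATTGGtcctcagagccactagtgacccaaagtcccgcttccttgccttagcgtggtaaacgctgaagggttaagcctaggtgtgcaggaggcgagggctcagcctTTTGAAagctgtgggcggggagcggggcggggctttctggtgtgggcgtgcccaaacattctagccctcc
Mcm6: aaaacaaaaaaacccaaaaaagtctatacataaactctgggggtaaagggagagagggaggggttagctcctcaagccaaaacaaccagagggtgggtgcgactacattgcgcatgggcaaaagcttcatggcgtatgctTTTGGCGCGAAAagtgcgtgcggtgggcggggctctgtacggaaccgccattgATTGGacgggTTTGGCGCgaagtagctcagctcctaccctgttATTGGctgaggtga

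The promoter table matched 23 of the 28 measured genes with 24 windows, each of 250 bases before and 50 from the start, and the counts below are over whole windows. CHR letters stood in 9 of 13 windows of cyclin, Cdk1, Mki67, mitotic and kinetochore genes, in 2 of 8 windows of replication genes, and in 17.9% of the 32851 promoters of all genes. CCAAT stood in 11 of 13 and 7 of 8 of these windows, against 37.4% of all promoters. E2F letters stood in the windows of Mcm3, Mcm5, Mcm6 and Cdk1, against 1.84% of all promoters, and the forward and reverse matches overlap in Mcm5 and Mcm6. A match of letters is a description of the sequence, not a bound site.

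The values are log2 signals as the authors deposited them. More of these genes lay above the array median than below it in every liver, and few lay above the median of protein-coding probe sets. The array median, taken over 65956 probe sets of coding and noncoding genes, ran from 1.17 to 1.25 in HFD-inulin arrays and from 1.20 to 1.26 in HFD arrays. Over this median in all 6 arrays were 16 of 28 genes, where 44.1% of all probe sets were. These were Ccne1, Ccnb2, Aurka, Aurkb, Plk1, Birc5, Mcm2, Mcm3, Mcm4, Mcm5, Mcm6, Pcna, Rrm2, Tyms, E2f1 and Cdkn1a. Below it in every array were 8 genes, Ccna2, Ccne2, Bub1, Bub1b, Cenpe, Cenpf, Kif11 and Top2a. The remaining 4 crossed it, with Mki67 and Cdc20 above in 2 arrays, Kif20a in 4 and Cdk1 in 5. By the margin in the lowest array, nearest to the line were Ccne1, never less than 0.06 above it, and Cdk1, which fell short by 0.03. By mean percentile over the arrays, nearest were Cdc20 (49.4) and Kif20a (50.7).

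By role, 8 of 9 replication genes lay above the median in all arrays, all but Top2a, as did 4 of 7 mitotic kinase, checkpoint and anaphase genes and 0 of 4 genes of kinetochores and spindle motors. The array median is a low bar, since about as many probe sets carry no gene symbol as carry one. Against the median of protein-coding probe sets, 2.21 to 2.25 in HFD-inulin arrays and 2.24 to 2.27 in HFD arrays, 5 of 28 stood higher in all arrays (Plk1, Mcm2, Pcna, E2f1 and Cdkn1a). Against the 75th percentile of each array, 2 did, Pcna and Cdkn1a. No detection call was used here, and close to background a log2 signal understates a change in transcript, so the differences below are differences in signal.

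**Figure D1:**
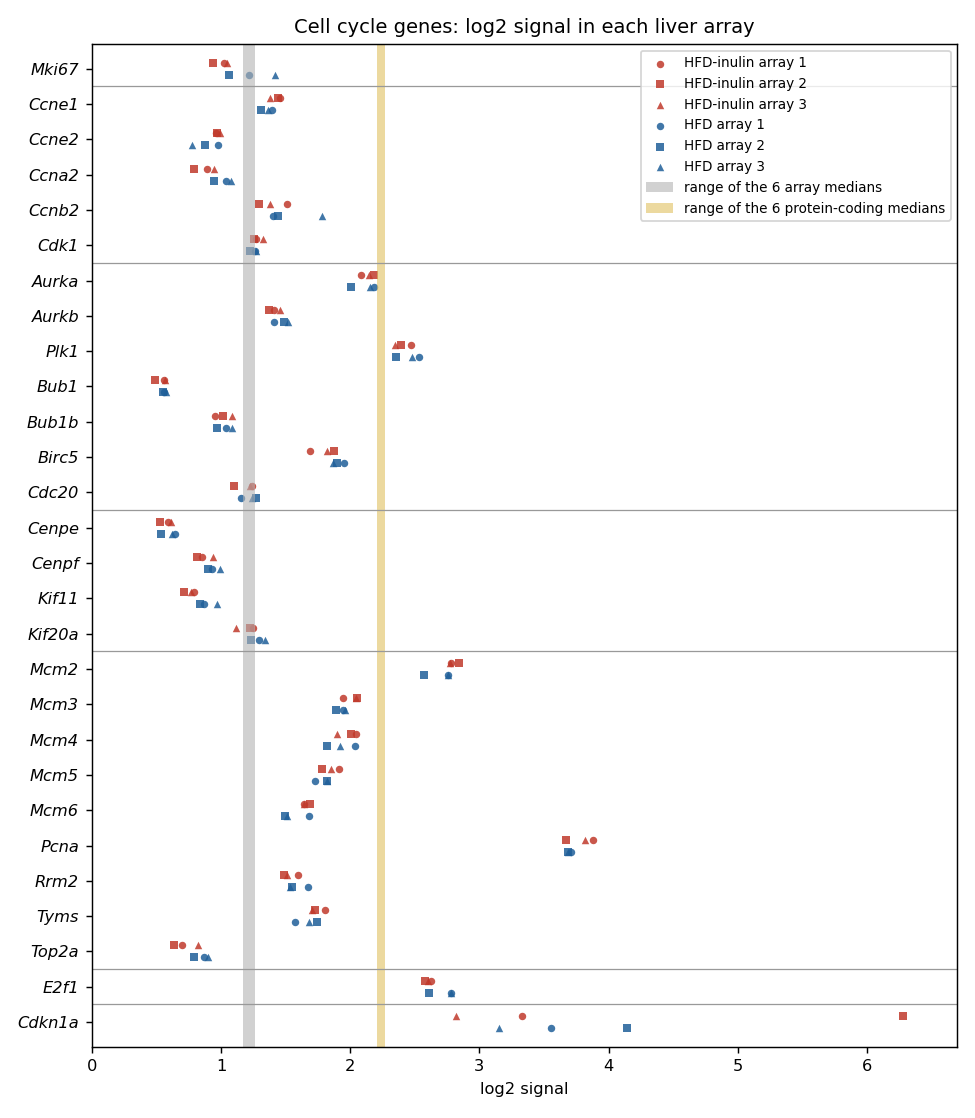
The log2 signal (horizontal axis) of 28 cell cycle genes (rows, grouped by role between the grey lines) in 3 HFD-inulin arrays (red) and 3 HFD arrays (blue), with the range of the array medians (grey band, 1.17 to 1.26) and of the protein-coding medians (yellow band, 2.21 to 2.27). Most genes lie between the bands or below the grey one, and the points of a gene nearly coincide except for Cdkn1a, at 6.28 in HFD-inulin array 2.

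No gene of the list differed between the groups by the test. In limma, fitted over all 65956 probe sets with Benjamini-Hochberg adjustment, 0 of 28 passed an adjusted p of 0.05, and 0% of all probe sets did (smallest adjusted p 0.902 for a member and 0.0742 over the array). At an unadjusted p under 0.05 there were 0 of 28 in limma, where 5.15% of all probe sets were, and 1 of 28, Kif11, by ordinary least squares. The share of all probe sets by ordinary least squares is not given here, so that count has no background beside it. The median difference, HFD-inulin minus HFD, was -0.02 over the members and -0.02 over all probe sets. Higher in HFD-inulin were 12 of 28, where 43.5% of all probe sets were higher.

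The signals of a gene varied little between arrays for all but 1 gene. The median residual SD was 0.0702 over the members and 0.116 over all probe sets. For 27 of 28 members the 95% interval of the difference lay within a 1.5-fold change either way, which held for 89.2% of all probe sets, and Cdkn1a was the exception. These comparisons with all probe sets were not matched for signal level, and 8 of 28 members lay below the array median in every array. Close to background a log2 signal understates a change, so a narrow interval there is one of signal, not of transcript. The groups did not overlap in 3 of 28 members, where 10.3% of all probe sets had this. One was higher in HFD-inulin, Mcm2, where 4.32% of all probe sets were higher without overlap, and 2 were lower, Mki67 and Kif11, where 6.02% were. These shares are near the background.

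**Figure D2:**
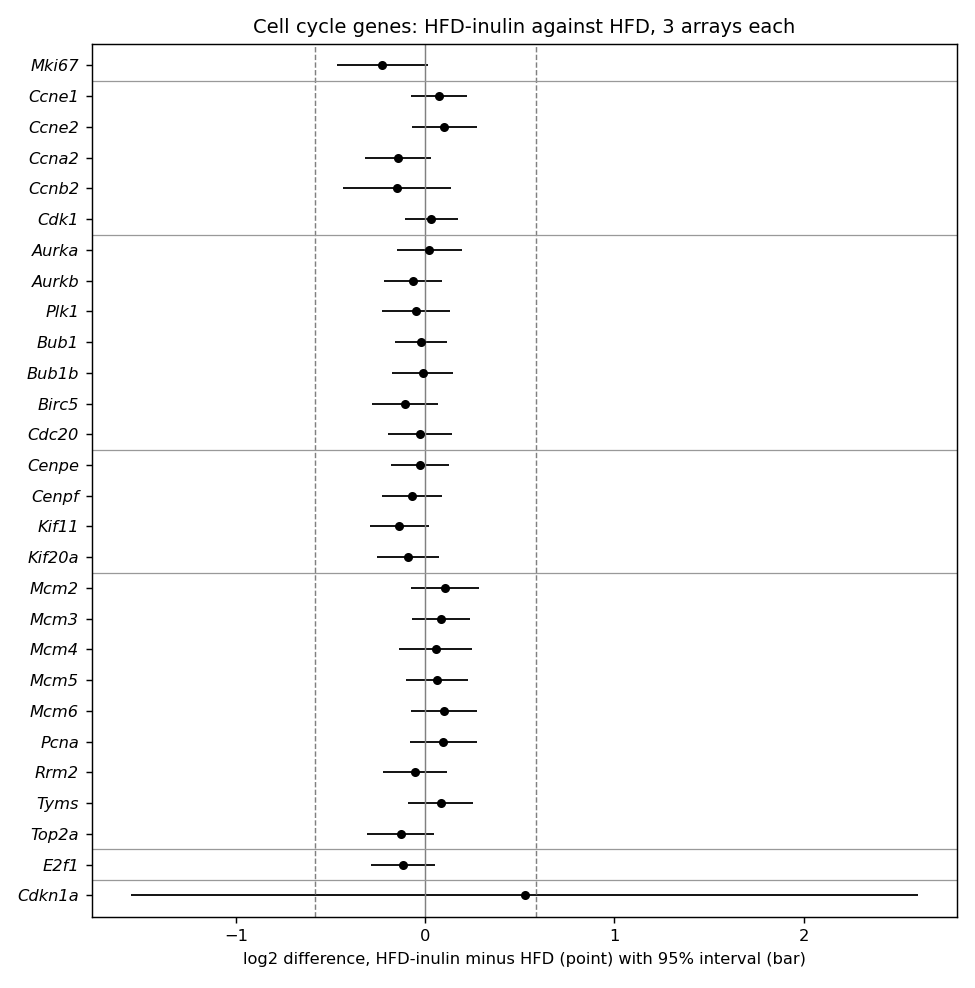
The log2 difference, HFD-inulin minus HFD (horizontal axis), of each of the 28 genes with its 95% interval from limma (3 arrays per group). Dashed lines mark 1.5-fold. Only the interval of Cdkn1a, -1.55 to 2.61, passes the dashed lines.

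Mki67, which encodes the Ki-67 antigen found in cycling cells, had the smallest p of the list. Its signal read 1.03, 0.94 and 1.04 in HFD-inulin livers 1 to 3, against 1.22, 1.06 and 1.42 in HFD livers 1 to 3. An exact permutation test cannot go below p = 0.1 with 3 against 3. All 3 HFD-inulin values lay under all 3 HFD values, with HFD array 2 only just above HFD-inulin array 3. The difference was -0.23 (SE 0.10, 95% interval -0.47 to 0.01, limma adjusted p = 0.902), and -0.14 without HFD array 3, the highest. It was -0.23 in HFD-inulin arrays 1 and 2 against HFD array 1, and -0.19 in HFD-inulin array 3 against HFD arrays 2 and 3. These are the low-signal and the high-signal arrays of a split that crosses the groups. That split follows the first principal component (53.1% of the variance) and the mean log2 signal of 245 chromosome Y probe sets with shared profiles, which came to 1.91, 1.60 and 3.15 in HFD-inulin livers 1 to 3 and 1.34, 3.24 and 2.99 in HFD livers 1 to 3.

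Among cyclins and CDK1, 3 of 5 were higher in HFD-inulin and 2 lower. Ccna2, the cyclin of S phase and mitotic entry, measured 0.89, 0.79 and 0.95 in HFD-inulin arrays and 1.04, 0.94 and 1.08 in HFD arrays. The groups met at HFD-inulin array 3 and HFD array 2, and the difference was -0.14 (SE 0.07, limma adjusted p = 0.902). Ccnb2, a partner of CDK1 in mitosis, measured 1.51, 1.30 and 1.38 against 1.40, 1.44 and 1.78, so its difference of -0.15 rests largely on HFD array 3.
Cdk1, the kinase of mitotic entry, measured 1.27, 1.26 and 1.33 in HFD-inulin arrays and 1.26, 1.22 and 1.27 in HFD arrays. Its difference was 0.03 (95% interval -0.11 to 0.17). The E cyclins, which act with CDK2 at the start of S phase, differed by 0.07 for Ccne1 and 0.10 for Ccne2, with overlapping groups. The difference of Ccne2 was -0.01 within the low-signal and 0.17 within the high-signal arrays.

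The genes of mitosis proper leaned lower by small amounts. Of 7 genes of mitotic kinases, the spindle checkpoint and anaphase, 6 had the lower mean in HFD-inulin livers (median -0.03), and the groups overlapped in every one. Over all probe sets the median was -0.02 and 43.5% were higher, so this median is near the background. After median centring 4 of these 7 were higher (median 0.0035). Birc5, which encodes survivin of the chromosomal passenger complex, differed by -0.11 (SE 0.07), Aurkb, the kinase of that complex, by -0.06, and Plk1, a kinase of spindle formation, by -0.05. The checkpoint kinase gene Bub1 differed by -0.02, its relative Bub1b by -0.01, the anaphase activator Cdc20 by -0.03 and the centrosomal kinase Aurka by 0.02. Limma adjusted p ran from 0.905 upward in this group.
All 4 kinetochore and motor genes were lower, with a median of -0.08. Kif11, the plus-end motor that separates spindle poles, measured 0.79, 0.72 and 0.77 in HFD-inulin arrays and 0.87, 0.84 and 0.97 in HFD arrays. The groups lay apart, all below the array median. Its difference was -0.14 (SE 0.07, limma adjusted p = 0.902), -0.12 within the low-signal and -0.14 within the high-signal arrays. Kif20a, a kinesin of cytokinesis, differed by -0.09, Cenpf by -0.07 and the kinetochore motor Cenpe by -0.03.
Centring each array on its median left 6 of these 11 mitotic genes lower, in place of 10, while 56.2% of all probe sets were then higher in HFD-inulin. Quantile normalization left 8 lower.

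The replication genes leaned the other way. Of 9, 7 had the higher mean in HFD-inulin livers (median 0.08), and 0 passed the test. All 5 Mcm genes, which encode subunits of the helicase loaded at origins, were higher by 0.05 to 0.10. Mcm2 measured 2.78, 2.84 and 2.77 in HFD-inulin arrays and 2.76, 2.57 and 2.75 in HFD arrays. HFD array 2 stood low and the other arrays differed by less than 0.1. The difference was 0.10 (SE 0.08, 95% interval -0.08 to 0.28, limma adjusted p = 0.909). Mcm6 differed by 0.10, Mcm3 by 0.08, Mcm5 by 0.06 and Mcm4 by 0.05, and HFD array 2 was the lowest of the 6 arrays for 4 of the 5 Mcm genes. Without it Mcm2 differed by 0.04, Mcm6 by 0.07 and Mcm4 by 0.003, and all 5 remained higher. The 5 stayed higher under median centring and quantile normalization, and 3 of 5 were higher within the low-signal arrays.
Pcna, the sliding clamp of DNA polymerases, measured 3.88, 3.67 and 3.81 in HFD-inulin arrays and 3.71, 3.69 and 3.68 in HFD arrays. HFD-inulin array 2 fell below all HFD values, and the difference was 0.10 (SE 0.07, limma adjusted p = 0.911). Tyms, thymidylate synthase, differed by 0.08, which was 0.19 within the low-signal and -0.005 within the high-signal arrays. Rrm2, a subunit of ribonucleotide reductase, differed by -0.05. Top2a, the topoisomerase that untangles replicated chromosomes, had the second negative value, with 0.70, 0.64 and 0.82 in HFD-inulin arrays against 0.87, 0.79 and 0.90 in HFD arrays, a difference of -0.13 (SE 0.07).
E2f1, the activator of S phase genes, measured 2.63, 2.58 and 2.61 in HFD-inulin arrays and 2.78, 2.61 and 2.78 in HFD arrays. HFD array 2 fell among the HFD-inulin values and the difference was -0.12 (SE 0.07, limma adjusted p = 0.902).

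**Figure D3:**
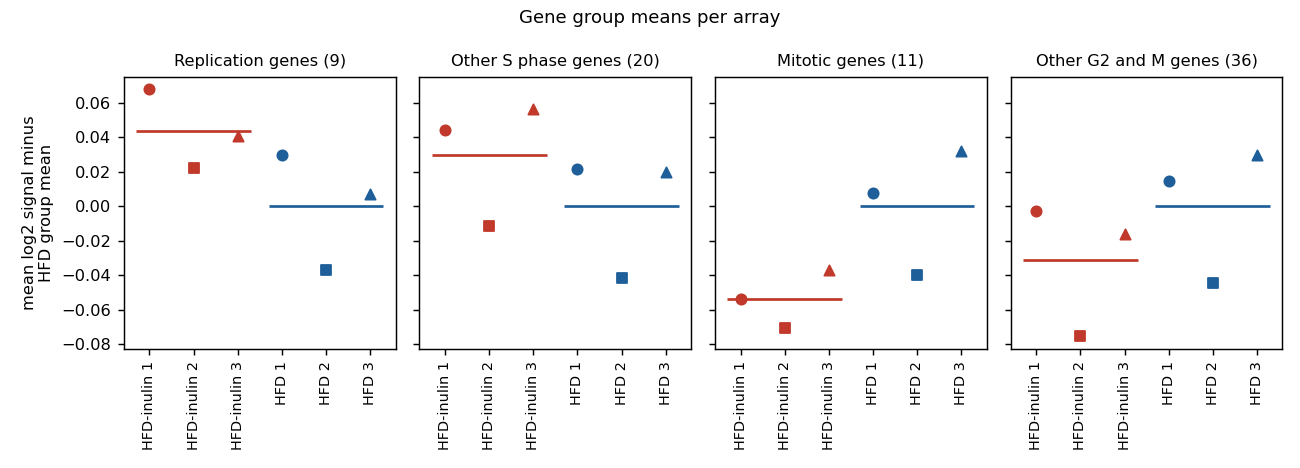
The mean over each gene group of log2 signal minus the HFD group mean (vertical axis), per array, for 9 replication genes, 20 other S phase genes, 11 mitotic genes and 36 other G2 and M genes. Horizontal lines are group means. The 3 HFD-inulin arrays (red) and 3 HFD arrays (blue) overlap in every panel, and HFD array 2 is the lowest HFD array in each.

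The group means per array show how small these leanings were. For replication genes they came to 0.07, 0.02 and 0.04 in HFD-inulin livers 1 to 3 and 0.03, -0.04 and 0.01 in HFD livers 1 to 3. For the 11 mitotic genes they came to -0.05, -0.07 and -0.04 against 0.01, -0.04 and 0.03. In both groups of genes the arrays overlapped by treatment, HFD array 2 being low in each. HFD-inulin array 2 gave the lowest value of the 6 arrays for 13 of 28 members and HFD array 3 the highest for 9. These arrays also had the lowest and highest array medians, 1.17 and 1.26, and after median centring the counts were 7 and 5. After centring HFD-inulin array 2 was also the highest array for 9 of 28 members, and HFD array 2 was the lowest for 10.

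Cdkn1a was the one member that varied widely, and it did so within groups. Its signal read 3.33, 6.28 and 2.82 in HFD-inulin livers 1 to 3, against 3.55, 4.14 and 3.15 in HFD livers 1 to 3. HFD-inulin array 2 stood far above the other 5, while HFD-inulin array 3 was the lowest of all. Group means stood at 4.14 ± 1.87 for HFD-inulin livers and 3.62 ± 0.50 for HFD livers (SD, n = 3 each). The difference was 0.53 (SE 0.87, limma adjusted p = 0.954). Without HFD-inulin array 2 the difference was -0.54, and it was 1.25 within the low-signal and -0.83 within the high-signal arrays. Thus the sign rests on 1 liver.
Of 7 neutrophil markers, 5 were highest in that same array and 5 had a higher mean in HFD-inulin, while Ngp was lowest of the 6 arrays there and Camp was highest in HFD array 2. The 7 linear signals summed to 16.0, 24.9 and 16.0 in HFD-inulin livers 1 to 3 and 16.6, 15.8 and 15.6 in HFD livers 1 to 3. S100a8, which encodes a subunit of calprotectin, measured 2.33 in HFD-inulin array 2 and from 0.50 to 0.91 in the other 5 arrays. Of the 7 neutrophil markers, 2 lay above the array median in all arrays, and the lowest value stood at percentile 9.2. Of 4 cholangiocyte markers, 3 were also highest in HFD-inulin array 2, among them the keratin gene Krt19, at 3.04 there and 1.82 to 1.93 in the other 5 arrays. Other marker lists were at their lowest of the 6 arrays in HFD-inulin array 2, by mean log2 signal minus the HFD group mean. These were the Kupffer cell (-0.25), stellate cell (-0.16), lymphocyte (-0.16) and erythroid (-0.09) lists. The hepatocyte and endothelial lists stood at 0.04 and -0.05 there. The part of any cell type in the Cdkn1a value was not tested.

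Cdkn1a is a target of p53, so other genes of that pathway were set beside it. Of 13 measured out of 15 listed, 8 had the higher mean in HFD-inulin livers and 5 the lower one (median 0.0025), and 0 passed an adjusted or an unadjusted p of 0.05 in limma. Ordinary least squares placed 1 under the unadjusted threshold, a count without a share of all probe sets beside it. The list mean relative to HFD came to -0.09, 0.04 and 0.05 in HFD-inulin livers 1 to 3 and 0.05, -0.0035 and -0.05 in HFD livers 1 to 3. Of the 13, 5 were highest of the 6 arrays in HFD-inulin array 2, and 7 after median centring. The same counts were 4 and 9 of the 28 members, and 8 and 17 of 73 other cell cycle genes. No share of all probe sets stands beside these counts, and they are not read as a result. Of the 13, the 4 with the smallest p were Phlda3 (-0.14, SE 0.07), an inhibitor of AKT signalling, the antiproliferative gene Btg2 (0.14, SE 0.08), the stress gene Gadd45b (0.16, SE 0.16) and Sesn2 (-0.08, SE 0.08). Gadd45b was highest in HFD-inulin array 2 as well, at 4.32, against 3.74 to 3.91 in HFD arrays.

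**Figure D4:**
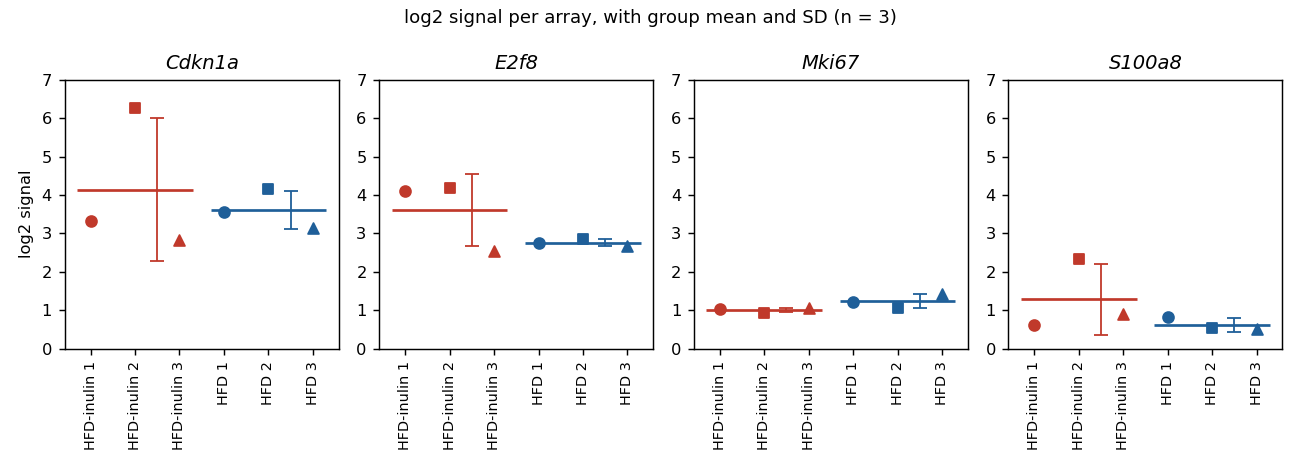
The log2 signal (vertical axis) of Cdkn1a, E2f8, Mki67 and the neutrophil gene S100a8 in 3 HFD-inulin arrays (red) and 3 HFD arrays (blue). Horizontal lines are group means and bars are SD (n = 3). Cdkn1a and S100a8 are high in HFD-inulin array 2, and E2f8 stands out in the first and second HFD-inulin array alone.

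Of 73 further cell cycle genes measured, 27 had the higher mean in HFD-inulin livers and 46 the lower one, where 43.5% of all probe sets were higher. Of 20 other S phase genes, 13 had the higher mean in HFD-inulin livers (median 0.03). Those with the smallest p were Rfc4 (0.13, SE 0.07), of the clamp loader, the licensing inhibitor Gmnn (0.09), Orc6 (0.16), of the origin recognition complex, and Gins1 (0.08), of the replicative helicase. The groups lay apart in 3 of the 20 (Rfc4, Gmnn and Gins1), all higher, where 4.32% of all probe sets were higher without overlap. Of 36 other G2 and M phase genes, 30 were lower, with a median of -0.04, and those with the smallest p were Incenp (-0.11, SE 0.06) and Cdca8 (-0.08), both of the chromosomal passenger complex, the ubiquitin carrier gene Ube2c (-0.10) and Tacc3 (-0.08), a spindle protein gene. The groups lay apart in 4 of the 36, 3 of them lower, where 10.3% of all probe sets lay apart and 6.02% were lower. In limma 0 of the 20 and 0 of the 36 passed an adjusted or an unadjusted p of 0.05, and ordinary least squares placed 2 S phase genes and 1 gene of G2 and M under the unadjusted threshold. The counts by ordinary least squares have no share of all probe sets beside them and are not read as a result.
These counts moved with the scaling. After median centring 17 of the 20 S phase genes were higher and 22 of the 36 G2 and M genes lower, where 56.2% of all probe sets were higher. HFD-inulin array 2 was the lowest of the 6 arrays for 18 of the 36 G2 and M genes before centring and for 4 after it. HFD array 2 was lowest for 8 before and 18 after. Within the high-signal arrays 16 of 20 were higher and 19 of 36 lower, and within the low-signal arrays 11 of 20 higher and 29 of 36 lower.

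Among 17 other genes of G1 and CDK inhibition, 8 were higher and 9 lower, with 1 of 17 under an unadjusted p of 0.05 in limma, where 5.15% of all probe sets were, so the count is near the background. That gene was Rb1, the retinoblastoma gene, which restrains E2F. Its probe set with the highest mean measured 3.44, 3.75 and 3.47 in HFD-inulin arrays and 3.34, 3.07 and 3.21 in HFD arrays, a difference of 0.34 (SE 0.11, limma adjusted p = 0.902). The groups lay apart, but its other probe sets gave -0.06 and 0.14. Next came the G1 kinases Cdk6 (-0.35, SE 0.15) and Cdk4 (0.22, SE 0.10) and the CDK inhibitor gene Cdkn1c (-0.19, SE 0.09), whose groups also lay apart.
E2f8, an atypical E2F that represses its targets and promotes polyploidy in mouse hepatocytes, was chosen after its values were seen. Its signal read 4.10, 4.18 and 2.54 in HFD-inulin livers 1 to 3, against 2.74, 2.85 and 2.67 in HFD livers 1 to 3. HFD-inulin arrays 1 and 2 stood above all others and array 3 below all others. The difference was 0.85 (SE 0.42, limma adjusted p = 0.902), 1.40 within the low-signal and -0.23 within the high-signal arrays. It was 1.39 without HFD-inulin array 3 (limma adjusted p = 0.0558, where the alternatives ran from 0.0558 to 0.9999). That fit drops the 1 HFD-inulin array that went against the rise, so its p is not read as a result. Its relative E2f7 differed by -0.04.

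The tissue label was checked against markers. All 6 hepatocyte markers (Alb, Apoa1, Ttr, Cyp2e1, Tat and Fgb) stood among the brightest probe sets of every array, the lowest at percentile 99.5. The summed linear signal of 7 lymphocyte markers ran from 18.6 to 19.5 in HFD-inulin arrays and from 19.5 to 22.1 in HFD arrays. Of these 7, 0 had a higher mean in HFD-inulin and 3 lay above the array median in all arrays, the lowest value standing at percentile 14.2. The median difference of this list was -0.11. HFD array 3 was the highest of the 6 arrays for all 7 lymphocyte markers. Without it the median was -0.07 and 1 of 7 was higher in HFD-inulin. The Kupffer cell list had 4 of 6 lower and a median of -0.16. Adgre1 was at -0.32 (limma adjusted p = 0.902), while Clec4f and Vsig4 were higher, by 0.03 and 0.02. The endothelial list had 4 of 5 lower and a median of -0.11. It ran from Stab2 at -0.28 (limma adjusted p = 0.902) to a highest difference of 0.23. By median, the lymphocyte, Kupffer cell and endothelial lists moved the same way as Mki67 and the mitotic genes. So did the hepatocyte list (4 of 6 lower, median -0.07) and the erythroid list (5 of 6 lower, median -0.03). Medians were 0.01, 0.06 and 0.21 for stellate cell, cholangiocyte and neutrophil lists, and 43.5% of all probe sets were higher in HFD-inulin. The part of any cell type in the differences of Mki67 and the mitotic genes was not tested. The ranges of summed linear signal, HFD-inulin and then HFD, were 65.4 to 82.7 and 75.9 to 80.8 for 6 erythroid markers, 239 to 283 and 253 to 280 for 6 Kupffer cell markers, 158 to 167 and 160 to 178 for 5 markers of sinusoidal endothelium, 140 to 160 and 141 to 155 for 6 of stellate cells, and 19.0 to 26.0 and 18.2 to 20.6 for 4 of cholangiocytes. In the erythroid list 4 of 6 lay above the array median in all arrays, the lowest value standing at percentile 16.7. In whole liver, fewer cells of a type and less RNA per cell cannot be told apart.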

How the data were processed

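Total RNA of liver was labelled with biotin, per the labels. The values are log2 signals, which the authors deposited as a single table. The submitters' processing notes name Affymetrix Expression Console 1.0. How probes were summarized and background-corrected, and on which build, is not given in the sources used here. That the scale is log2 was taken from the range of the values. Lists and members were chosen with earlier results of these data known.

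Probe sets were named from GEO's platform annotation, with 827 symbols updated through RefSeq (GRCm38.p6): 30604 of 65956 carried 1 symbol, 2146 several (not named) and 33206 none. A gene was represented by its probe set with the highest mean. The difference, HFD-inulin minus HFD, came from limma 3.58.1 (R 4.3.3; lmFit, eBayes, two-sided) on all 6 arrays. Its p-values were adjusted by Benjamini-Hochberg across the 65956 probe sets, with 0.05 as the threshold, and the procedure was tested on simulated data. All listed members were named, and up to 4 genes with the smallest p of each further list. Alternatives were another variance prior, ordinary least squares, leaving out dim probe sets, median centring or quantile normalization, weights per array, a replicate block, the array split as a block and within its parts, the mean of a gene's probe sets, other level thresholds, and each array left out. The precision is limited by 3 arrays per group. Of the value columns, 0 belonged to no sample.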

Additional observations from a re-analysis of the deposited data

How the results depend on the processing

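Of 466 refitted differences of single members under 17 alternatives, 0 members reached an adjusted p of 0.05 in limma or by ordinary least squares (smallest 0.507). Over all probe sets a trended and robust prior called 4, none of them a member. The other alternatives for which calls were counted, leaving out each array included (0 to 0), called 0. Calls were not counted for the mean of a gene's probe sets. The count of members with an unadjusted p under 0.05 was 0, and 1 by ordinary least squares (Kif11), 1 with the replicate block (Mki67) and 0 to 1 with each array left out, the 1 being Mki67 without HFD array 2, at -0.31, against -0.14 without HFD array 3. The share of all probe sets under this threshold is given for the main fit alone. Members higher in HFD-inulin numbered 11 to 13 and their median difference ran from -0.04 to -0.01 with each array left out. The count above the array median in all arrays was 16 to 17 with each array left out, 2 at the 75th percentile, 2 of 18 after the filter on dim probe sets (whose own median is higher), and 5 at the median of protein-coding probe sets, a threshold chosen after seeing the data. The sign turned for 7 members within the low-signal and 5 within the high-signal arrays, for 4 without HFD-inulin array 2 and 4 under median centring, for 2 under quantile normalization and for 0 or 1 under each other alternative, none of them called. Each measured member has 1 probe set, so averaging probe sets moved no member. Deviations of same-numbered arrays correlated at 0.26, -0.28 and 0.40, and those of unlike-numbered arrays at -0.54 to 0.42. Pairs within a part of the array split were all positive and pairs across it all negative. These values therefore cannot tell whether arrays of the replicate block share more than a number. Signals close to the array median rise little over background, which limits what a difference there can show.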
